A study of Coprinopsis cinerea with 7 samples.

Results

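The flanks described here are stretches of the Coprinopsis cinerea genome that lie within 3 kb of a long block where the 2 deposited tables disagree on input coverage. For each window of 300 bp, r was defined as the log2 ratio of the summed input counts (plus 1, over the column total) in the primary table to those in a second table whose name refers to multiple mapping, called the multi-mapped table below. A long run was 10 or more consecutive windows with r under -0.5, and a flank window was one with r from -0.5 to 0.5 within 10 windows of such a run. On 13 chromosomes 241 long runs covered 5814 windows (median length 6300 bp, longest 42300 bp). Of 4168 windows within 10 windows of a run, 3417 met the rule (2.86% of 119376 chromosome windows), 538 had a lower r and 213 a higher one. They formed 469 flank sides, a side being the members to the left or right of 1 run, and 208 sides had a member at each of the 10 distances.

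Coprinopsis cinerea, the ink cap mushroom, is a laboratory model of basidiomycete development, and the samples are genomic DNA of oidia, its asexual spores. The mark measured is 5-hydroxymethylcytosine (5hmC). Cytosines in DNA are methylated by DNA methyltransferases, and enzymes of the TET/JBP family oxidise 5-methylcytosine to 5hmC and further. In fungi cytosine methylation is found mostly at transposons and other repeats. Whether the runs here are such repeats, and the flanks single-copy sequence, was not checked against an annotation. In CMS-seq, bisulfite converts 5hmC to cytosine-5-methylenesulfonate (CMS) and fragments with CMS are pulled down with an anti-CMS antibody, so a window's count does not tell apart how many nuclei carry the mark from how much of it 1 molecule carries.

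The labels give 7 libraries with no treatment or genotype difference, namely 5 anti-CMS immunoprecipitations (IP; 3 of biological replicate 1 and 2 of biological replicate 2) and 2 inputs, 1 per biological replicate. Each table has 4 count columns, an IP and an input under the tag 1_1 and the same pair under the tag B_1. The primary table summed to 106176723 counts for IP 1_1, 67181684 for IP B_1, 36059418 for input 1_1 and 36233140 for input B_1, and the columns of the multi-mapped table to between 19994333 and 28735765. The length of the reads is not given in the labels, and a read that spans a window border may be counted on both sides of it, so a window next to a run can share reads with the run. A flank window held a median of 1160 counts in IP 1_1, 730 in IP B_1, 355 in input 1_1 and 349 in input B_1, and no flank window was empty in any column. Over the flank windows the 2 columns of a group had a Pearson r of 0.961 (IP) and 0.966 (input) across windows, which are not replicates. Chi-square per degree of freedom between the columns was 10.9 (IP) and 2.26 (input) in the primary table. It was 1.14 and 0.915 in the multi-mapped table, so the primary IP columns agreed least by this measure.

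The label of the runs as repeat blocks was checked against coverage alone, since no repeat annotation was used here. Per window the runs held 2.87 ± 0.140 CPM of input in the primary table (CPM, counts relative to the TMM-scaled column total; SD, n = 2 columns) and a mean of 20.2 CPM in the multi-mapped table. Unique windows farther than 10 windows from any window with r under -0.5, called far windows below, held 7.71 ± 0.00940 and 7.03 CPM in the same order. For the flanks themselves input was 9.79 ± 0.258 CPM and 9.19 CPM, above far windows in both tables. The word unique stands here for an r from -0.5 to 0.5 alone, and copy number was not tested. Median r was 0.12 in the flanks, 0.11 in far windows and -3.48 in the runs. These input values chose the members and are given as a description. At the bounds, the 97 windows with r from -0.5 to -0.4 had a pooled log2 IP over input of 0.58 and the 45 just outside, down to -0.6, of 0.77. At the upper bound the 183 windows from 0.4 to 0.5 and the 96 up to 0.6 both had 0.28.

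Flank windows held more anti-CMS IP than input signal in both columns. Per window the flanks held 12.8 CPM in IP 1_1 and 13.3 in IP B_1, against 9.97 in input 1_1 and 9.60 in input B_1. Both IP columns lay above both inputs, at 13.04 ± 0.367 against 9.79 ± 0.258 CPM (SD, n = 2 each), a 1.33-fold difference (pooled log2 0.41). Far windows held 8.004 ± 0.0496 CPM in IP and 7.71 ± 0.00940 in input (log2 0.05). Set against far windows, flank DNA was over-represented by log2 0.68 and 0.73 in the IP columns and by 0.37 and 0.32 in the inputs. The difference between IP and input on that scale was 0.36, larger than the column spread (SD 0.03 in IP and 0.04 in input). An exact two-sided permutation test over the 4 columns gave p = 0.333, the smallest that 2 columns against 2 allow. The multi-mapped table gave 0.26 for the same difference (exact permutation p = 0.333). Because the inputs serve both the rule and the denominator, members were also chosen from 1 input and compared with the other. The pooled log2 was then 0.46 with the rule from input 1_1 and 0.39 with the rule from input B_1.

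IP over input was highest at the edge of the run and lower with distance. Counted outward from the run, window 1 (1 to 300 bp) held 15.2 CPM in IP 1_1, 16.2 in IP B_1, 10.7 in input 1_1 and 9.98 in input B_1, a 1.52-fold difference (log2 0.60). Window 2 held 14.7 and 15.5 CPM in IP and 10.8 and 10.3 in input (1.43-fold, log2 0.51). At window 3 the ratio was 1.37-fold (log2 0.45). From window 4 to window 7 it was level at 1.28-fold to 1.29-fold. Window 10 (2701 to 3000 bp) held 11.2 and 11.5 CPM in IP and 9.36 and 9.10 in input (1.23-fold, log2 0.30). At each of the 10 distances both IP columns lay above both inputs. Most of the drop of 0.31 in log2 from window 1 to window 10 thus fell between windows 1 and 4 (0.60 to 0.36). Among the 208 complete sides window 1 lay above window 10 on 136 (65.4%). In the multi-mapped table the ratio went from log2 0.37 to 0.17 over the same windows. Leaving out window 1, which borders the run, left a pooled log2 of 0.38 and a drop of 0.22 from window 2 to window 10.

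**Figure D1:**
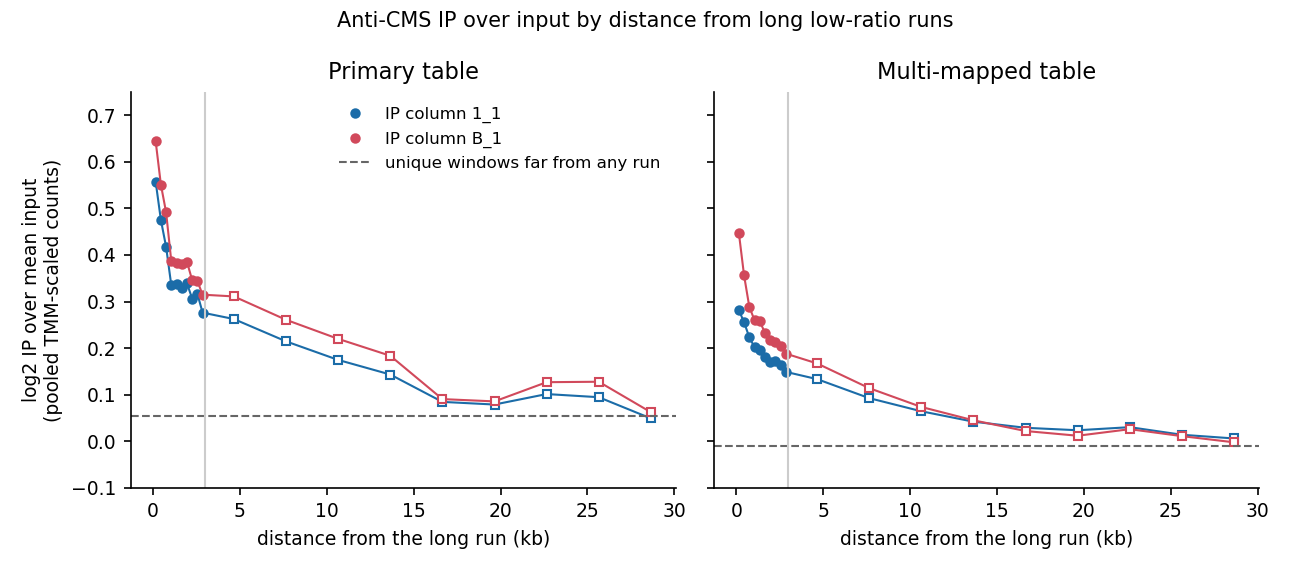
Pooled log2 of each IP column over the mean input (y) against distance from the nearest long run in kb (x), in the primary (left) and the multi-mapped table (right). Filled points are flank windows, one per 300 bp. Open squares are bins of 10 windows with r from -0.5 to 0.5 farther out, those near shorter runs included. The grey line marks 3 kb and the dashed line far windows, which leave windows near shorter runs out. Both IP columns fall from window 1 (0.56 and 0.64 in the primary table) towards the level of far windows (0.05).

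The decline did not stop at 3 kb. Windows with r from -0.5 to 0.5 at 11 to 20 windows had a pooled log2 of 0.29, those at 21 to 30 windows 0.24, those at 31 to 40 windows 0.20 and those at 41 to 50 windows 0.16. Farther out the ratio did not decline steadily, at 0.09, 0.08, 0.11 and 0.11 in the next 4 bins and 0.06 at 91 to 100 windows (up to 30 kb), next to 0.05 in far windows. Input coverage fell along the same path, from 9.79 CPM per window in the flanks to 7.95 at 91 to 100 windows, and the share of windows inside gene models rose from 51.4% to 67.6%. All flanks together were compared with far windows within 4 classes of coverage, without a split by distance. The classes were cut at the quartiles of 1 input, with the IP columns set over the other input. With classes from input 1_1 the flanks had log2 0.31, 0.34, 0.41 and 0.48 from the lowest to the highest coverage and far windows 0.02, 0.01, 0.04 and 0.11. With the inputs exchanged the flanks had 0.34, 0.34, 0.37 and 0.41 and far windows 0.04 to 0.07, so the flanks lay above far windows in each class. The parts of coverage, of gene position and of nearby shorter runs in the decline with distance were not tested.

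Window by window, edgeR's quasi-likelihood test over the whole table called 1276 of the 3417 flank windows higher in IP (37.3%) at a Benjamini-Hochberg adjusted p under 0.05 and 11 lower. Over all tested windows 8.75% were called higher and 0.640% lower. By the coverage classes from input 1_1, the called share rose from 14.1% to 47.6% in flanks and from 1.82% to 9.66% in far windows. The highest class held 46.7% of flank windows and 23.5% of far windows, so the shares above are not matched for coverage. The median flank window had a log2 fold change of 0.32 (quartiles 0.04 and 0.50) and the median of all windows was -0.01. Of the flank windows 119 (3.48%) were called and at least 2-fold higher, against 1.80% of all windows. With DESeq2's Wald test 1103 flank windows (32.3%) were higher, against 7.57% of all windows. The multi-mapped counts gave 1030 higher flank windows (30.1%, against 7.00% of all windows) and 15 lower (0.439%, against 0.816%), and 883 windows were called higher in both tables. The authors' deposited table, by its own adjusted p, held 325 of the flank windows as higher (9.51%, against 3.26% of its windows), and all 325 were called here too. Its multi-mapped counterpart, also the authors' deposited table, held 193 (5.65%, against 3.21%). Without input 1_1 the count of higher flank windows was 607 and without input B_1 it was 426. Scaling by library totals instead of TMM gave 693 higher and 73 lower. The median log2 of all windows then moved from -0.01 to -0.16. Shares over all windows with an input left out or by library totals are not given here. These counts thus do not separate a change in the flanks from one in the whole table.

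The called share followed distance too. It was 48.3% in window 1 (222 of 460), 45.3% in window 2 (174 of 384), 37.5% in window 4 and 27.0% in window 10 (86 of 318). Windows at least 2-fold higher thinned out faster, from 39 of 460 (8.48%) in window 1 to 24 of 384 in window 2, 7 of 320 in window 4 and 2 of 318 in window 10 (0.629%, where all windows have 1.80%). Just past the limit, at window 11, 29.0% were called. Where windows 1 and 2 of a side were both members, window 2 was called on 137 of 190 sides with a called window 1 (72.1%) and on 37 of 188 sides without (19.7%). These neighbours may share reads. Counted from the run outward without a break, calls reached 3 or more windows on 80 of 469 sides, 5 or more on 35 and all 10 on 9. Only 208 sides had a member at each of the 10 distances. Neither these lengths nor the agreement of neighbours is given here for windows elsewhere, so they are not read as traits of the flanks.

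**Figure D2:**
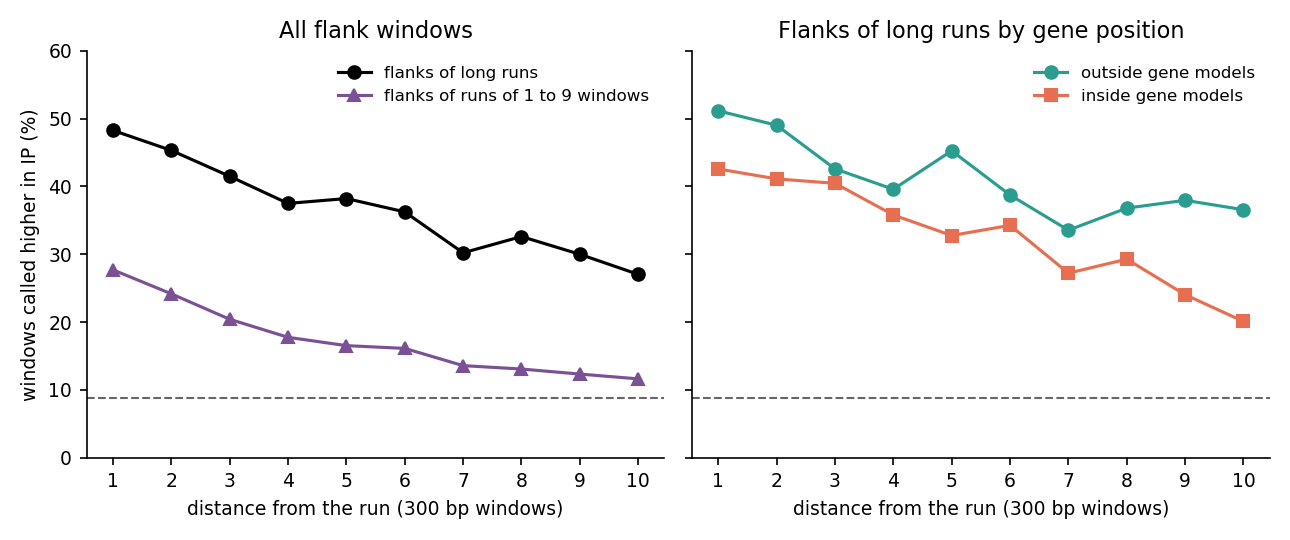
Percent of windows called higher in IP by edgeR (y) against distance from the run in windows of 300 bp (x). Left, flanks of long runs (from 48.3% to 27.0%) and of shorter runs of 1 to 9 windows (from 27.7% to 11.6%); right, flank windows of long runs outside and inside gene models; the dashed line is the 8.75% of all tested windows.

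Shorter runs gave the nearest comparison. The 11891 unique windows that lay within 10 windows of a run of 1 to 9 windows, and of no long run, had a pooled log2 of 0.34, a median window log2 of 0.04 and 17.9% of windows called. Windows called and at least 2-fold higher numbered 439 there (3.69%), a share close to the 3.48% of the flanks. Their window 1 had a higher pooled ratio than that of long runs (log2 0.74, against 0.60) but a lower median window (0.14, against 0.42). By window 10 their ratio was down to log2 0.14 and their called share to 11.6%, against 0.30 and 27.0% beside long runs. The groups share their columns and the difference was not tested. Inside the long runs the primary table gave log2 1.01 in the outermost window and 1.396 in the next, from 5.56 and 3.16 CPM of input, and 0.51 at 6 or more windows from an edge. The multi-mapped table, with 13.97 to 21.8 CPM of input there, gave 0.43, 0.44 and 0.38, and 0.37 just outside the edge.

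Taken side by side, most flanks were enriched. Window counts were summed per flank side and tested with all long runs and all tiles of up to 10 other unique windows, 11209 segments in 1 fit. Of 469 sides 346 were called higher (73.8%) and 5 lower by edgeR's quasi-likelihood test, where 15.5% of all segments were higher and 2.39% lower. The median side had a log2 of 0.40, against -0.02 for all segments and -0.03 for tiles, of which 11.3% were higher. From the multi-mapped counts 339 sides were higher and 5 lower, where 13.0% of all segments were higher and 4.92% lower, and 322 sides were higher in both tables. Leaving out 1 column at a time kept the count of higher sides between 260 and 357. A segment's power grows with its windows, and sides held a median of 9 against 10 in tiles.

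The sides did not spread evenly around their median. A group of 257 sides (54.8%) had a log2 between 0.3 and 0.6, and 87 (18.6%) lay between -0.2 and 0.1, with 61 (13.01%) between these ranges and 62 (13.2%) above 0.6. Of the tiles 83.9% lay in the lower range and 6.43% in the upper. By multi-mapped counts 188 sides lay between 0.3 and 0.6, 107 between -0.2 and 0.1, and 169 between them. Of the 241 long runs, 132 lay in the same upper range by primary counts and 194 by multi-mapped counts. Leaving out the 10 sides with the highest ratio lowered the pooled log2 from 0.41 to 0.38, and leaving out 50 lowered it to 0.33.

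**Figure D3:**
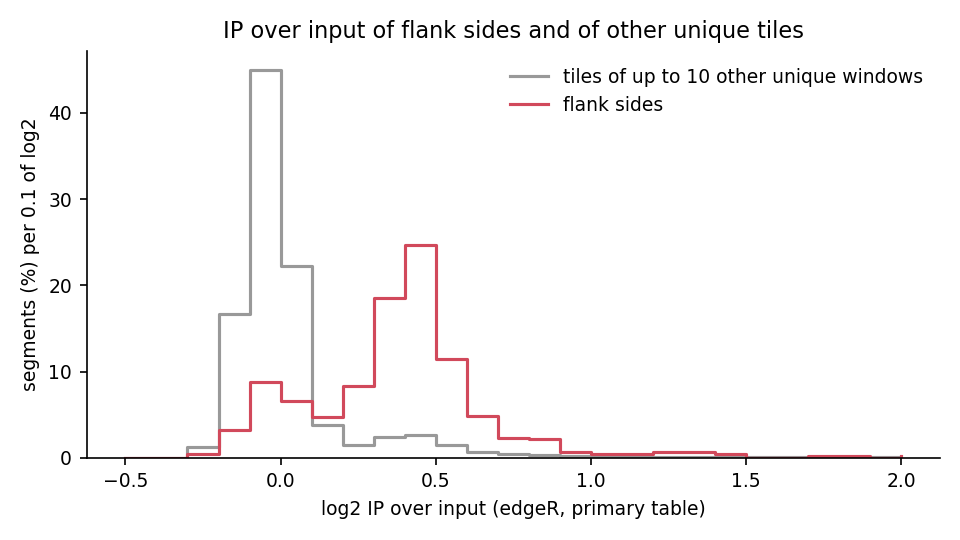
Percent of segments (y) per 0.1 of edgeR log2 IP over input in the primary table (x), for 469 flank sides and 10499 tiles of up to 10 other unique windows; 36 tiles lie beyond the right end. The tiles peak just under 0, and the sides have a main peak between 0.4 and 0.5 and a small one near 0.

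The 2 sides of a run were only weakly related. Among 176 runs with at least 3 members on each side, the left side was called on 126 and the right on 132. Both sides were called on 104, 1 side on 50 and neither on 22, and the product of the left and right shares would give 94.5 with both. Across these runs the left and right log2 values had a Pearson r of 0.23 and a Spearman rho of 0.18, as a description (the sides share their libraries). The log2 of the flanks had an r of 0.11 with that of the run in the primary table (rho 0.10), 0.21 with that of the run in the multi-mapped table (rho 0.08) and 0.05 with the log2 of run length (rho -0.01) over 231 runs. Flanks of runs with 10 to 14, 15 to 24 and 25 or more windows had pooled log2 values of 0.39, 0.45 and 0.40. Run length thus did not order them. The 32 runs that were not called higher in the primary table had flanks with a pooled log2 of 0.19 (18.8% of windows called), against 0.44 (40.1%) beside the 209 called runs. Split by the run's call in the multi-mapped table, the flanks had 0.39 (37.1%) beside 62 called runs and 0.42 (37.4%) beside the other 179, so the difference was not seen there. Neither difference was tested.

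On each of the 13 chromosomes both IP columns of the flanks lay above the far windows. The difference in pooled log2 was lowest on chromosome 10 (0.22; 294 flank windows) and highest on chromosome 7 (0.47; 313 windows) and chromosome 2 (0.45; 282). Several sides on chromosomes 7 and 2 are among the 10 highest named below. The median flank window had log2 0.34 on chromosome 7 and 0.29 on chromosome 2, against 0.32 over all flanks. Chromosome 4 had the most flank windows (461, beside 31 runs, 0.34), followed by chromosome 6 (442, 33 runs, 0.29). Chromosome 13 had the fewest (74, 4 runs, 0.40), and there 18.9% of flank windows lay inside genes, against 51.4% overall. Window 1 had a higher ratio than window 10 on 12 chromosomes. Chromosome 5 was the exception (0.59 and 0.72), where 1 window at distance 10 was 16.6-fold higher.

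**Figure D4:**
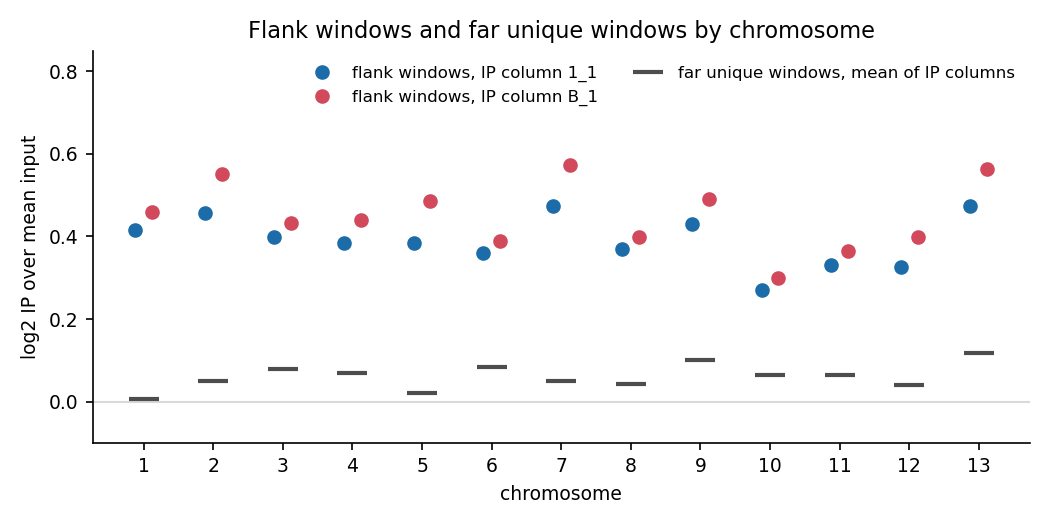
Pooled log2 IP over mean input (y) of the flank windows on each of 13 chromosomes (x), 1 point per IP column, with the far windows of the same chromosome as bars. All 26 points lie above their bar, and IP B_1 lies above IP 1_1 on each chromosome.

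Most flanks lay in chromosome interiors, though flank windows were more often near an end than windows overall. Within 20 kb of an end lay 97 flank windows (2.84%), against 1.46% of all chromosome windows and 0.869% of far windows. The share was 2.29% for unique windows near shorter runs and 4.06% for windows of the long runs. Within 100 kb it was 10.7% for flanks and 10.9% near shorter runs, so this position was not particular to the flanks. These 97 had a pooled log2 of 0.68 and 60.8% called, against 0.15 and 11.4% for far windows in the same zone. Their median window log2 was lower, at 0.47, against -0.01 for those far windows. The sides starting at 7501 and 4139101 on chromosome 1, among the highest named below, lie in this zone. The 3051 flank windows beyond 100 kb had 0.41 and 36.9% of windows called, close to the values over all flanks.

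Relative to genes the flanks differed from far windows, and so did unique windows near shorter runs. Of the latter 58.6% lay inside genes, from 40.0% in window 1 to 66.6% in window 10. Gene models of assembly CC3 held 51.4% of flank window midpoints and 70.3% of those of far windows, and 33.7% in window 1, rising to 57.9% in window 10. Flank windows outside genes had a pooled log2 of 0.49 (42.4% called) and those inside genes 0.34 (32.6%). In far windows the values were 0.12 (5.32%) and 0.03 (4.04%). The profile by distance was present in both: inside genes the ratio went from log2 0.53 in window 1 to 0.21 in window 10, and outside genes from 0.63 to 0.42. The called share outside genes stayed between 33.6% and 51.1%. Gene models touched by at least 1 flank window numbered 568. The gene table pairs these with locus tags but no product names, so their functions are not given here.

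The flanks of the 5 longest runs showed how much sides vary. The runs themselves were at 0.967-fold to 1.59-fold of input in IP by primary counts, and 3 of the 5 were called. The longest run, on chromosome 10 at 749101 to 791400, had a left side at 746101 to 749100 with 82.5 and 82.1 CPM in IP and 73.0 and 72.1 in input (log2 0.18 ± 0.05 SE, edgeR adjusted p = 0.0205). Its right side, at 791401 to 794400 over CC1G_11015 to CC1G_11017, did not pass (log2 -0.07 ± 0.06, adjusted p = 0.487), and IP and input columns overlapped there. On chromosome 2 the run at 3370801 to 3399900 was enriched on both sides, at log2 0.28 ± 0.07 to the left (adjusted p = 0.0109) and 0.50 ± 0.06 to the right (adjusted p = 1.43e-05), where 5 of 6 windows were called. On chromosome 1 the run at 63601 to 89700 had a left side with 185 and 181 CPM in IP against 140 and 134 in input (log2 0.42 ± 0.09, adjusted p = 0.00376). Its right side, at 89701 to 92700 over CC1G_02740 and CC1G_13555, was the lowest of all sides with 3 or more members, with 53.1 and 49.8 CPM in IP against 59.0 and 61.9 in input (log2 -0.23 ± 0.06, adjusted p = 0.0130). The IP columns lay above the inputs on one side of that run and below them on the other. Of the pair of 70-window runs on chromosome 6, the one at 1713301 to 1734300 was enriched to the right (log2 0.44 ± 0.06, adjusted p = 1.45e-04) and not called to the left (-0.03 ± 0.05, adjusted p = 0.748). The other, at 1755001 to 1776000, was enriched on both sides (log2 0.43 ± 0.09 and 0.30 ± 0.07). Without input B_1 the calls ended for the left sides on chromosomes 10, 2 and 1 (adjusted p of 0.220, 0.269 and 0.112), for the right side on chromosome 1 (0.206) and for the right side at 1776001 on chromosome 6 (0.132). Without input 1_1 the left side on chromosome 10 was not called (0.143). It was not called in the multi-mapped table either (log2 0.07, 0.265). By library totals it was not called (0.518), nor was the left side on chromosome 2 (0.0887), while the uncalled sides at 791401 on chromosome 10 and 1710301 on chromosome 6 were called lower (0.0129 and 0.0166).

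Among sides with 3 or more members, the 10 with the highest pooled ratio were 2.33-fold to 4.05-fold higher in IP. They were chosen among called sides with both IP columns above both inputs, so that order is not a finding. The highest lay on chromosome 7 at 2799901 to 2802300, over CC1G_08386 and CC1G_08387, with 176 and 260 CPM in IP against 53.9 and 53.8 in input (log2 2.02 ± 0.14 SE, edgeR adjusted p = 4.19e-07). The enrichment lay in windows 1 to 3 (log2 2.49, 3.33 and 3.13), and the other 4 members had values from -0.11 to -0.03. The right side of a run at the very start of chromosome 1 had the same shape, with log2 1.79, 2.52 and 3.09 in windows 1 to 3 and 0.26 in window 4 (2.66-fold over the side). On the side at 773701 to 776700 of chromosome 7 (2.75-fold) window 2 held most of it (log2 3.05), and on that at 581101 to 583200 of chromosome 2 (2.33-fold) window 1 did (3.07). Other sides had their highest window away from the run. One was at 4139101 to 4141800 on chromosome 1 (2.56-fold, log2 2.66 in window 9). Another was at 1607401 to 1610400 on chromosome 6 (2.34-fold, 1.95 in window 7). That side had no member between window 1 and window 7, so its peak lay next to windows outside the r range. By multi-mapped counts 9 of the 10 were called, at 1.25-fold to 1.54-fold, and the side at 581101 was not (1.01-fold, edgeR adjusted p = 0.859).

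A 23-window run on chromosome 2 at 470701 to 477600 carried 2 of these sides. To its right, over CC1G_10091, the columns held 246 and 318 CPM in IP and 84.3 and 88.4 in input (3.26-fold). To its left, over CC1G_10087 and CC1G_10088, they held 203 and 244 CPM in IP and 89.8 and 81.5 in input (2.61-fold). The ratio fell away on both sides: rightward from log2 3.63 to 2.43, 1.37 and 0.45 in window 4, and leftward from 3.34 to 2.62 and -0.07 in window 3. The run itself was 5.80-fold higher in the primary table and 1.37-fold in the multi-mapped table, where it was not called (edgeR adjusted p = 0.153).

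The run on chromosome 9 at 746101 to 750300, 14 windows long, parted its flanks. To the right, at 750301 to 753300 over CC1G_02416, all 10 windows were called, and the side held 271 and 343 CPM in IP against 129 and 133 in input (2.35-fold, log2 1.23 ± 0.14, edgeR adjusted p = 1.73e-05). The ratio there ran from log2 3.44 in window 1 through 2.15 and 1.10 to between 0.46 and 0.90 beyond. To the left, at 743101 to 746100 over CC1G_02413 and CC1G_02414, the columns held 65.2 and 58.5 CPM in IP and 73.8 and 68.1 in input, so both IP columns lay below both inputs. This left side was the third lowest and did not pass the test (log2 -0.20 ± 0.06, edgeR adjusted p = 0.0509). Under other settings its adjusted p lay between 3.84e-05 (without IP 1_1) and 0.438 (without input 1_1). The side between the lowest and this one, at 3148201 to 3151200 on chromosome 2 over CC1G_06155 and CC1G_06156, had log2 -0.22 ± 0.06 (adjusted p = 0.0226), which rose to 0.0887 when input 1_1 was left out and to 0.256 when input B_1 was. In the multi-mapped table it was not called (log2 -0.12, adjusted p = 0.0972). The side to the right of a 15-window run on chromosome 7, at 2777401 to 2780400, was called in all 8 members and touched no gene model. Its ratio did not fall from the edge (log2 0.55 in window 1, 2.82 in window 7, 2.58-fold over the side). The windows on both sides of window 7 were not members, so this peak lay next to windows outside the r range.

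**Figure D5:**
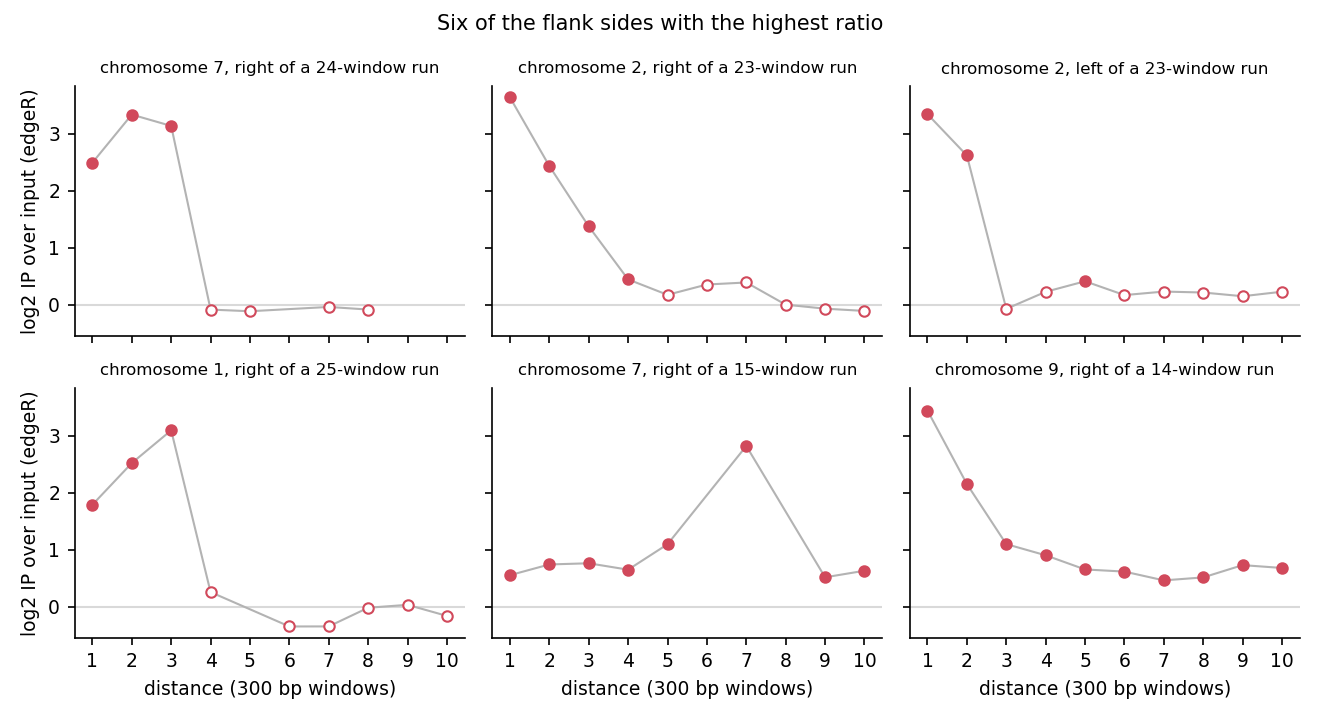
edgeR log2 IP over input of single windows (y) against distance from the run in windows of 300 bp (x) on 6 of the 10 sides with the highest ratio; filled points are called windows and gaps are windows outside the r range. In 5 panels the highest value lies in windows 1 to 3 (up to 3.63 on chromosome 2), and on the side of the 15-window run of chromosome 7 it lies in window 7 (2.82). The panels were picked without a rule. Among the sides left out are that at 4139101 on chromosome 1, highest in window 9, and that at 1607401 on chromosome 6, highest in window 7.

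Of the 6 called flank windows with the highest fold change, 4 touched a run. The highest, on chromosome 1 at 1169701 to 1170000, held 3150 counts in IP 1_1, 2786 in IP B_1, 76 in input 1_1 and 91 in input B_1 (17.1-fold by CPM, log2 4.09 ± 0.20 SE, edgeR adjusted p = 1.10e-07). The next, on chromosome 5 at 3245101 to 3245400, lay at distance 10 and held 5213 and 5098 counts in IP and 151 in each input (16.6-fold). Neither window touched a gene model. The window at 477601 on chromosome 2 had r = -0.49, close to the bound, and was 12.4-fold higher. Those at 750301 on chromosome 9 (10.8-fold), 470401 on chromosome 2 (10.1-fold) and 2800201 on chromosome 7 (10.1-fold) belong to the sides above. By multi-mapped counts the 6 windows were 2.00-fold to 3.65-fold higher and all were called.

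Lower windows were rare and lay away from the edge. The 11 called lower (0.322%, against 0.640% of all tested windows) sat on 7 sides, at windows 3 to 10. The lowest, on chromosome 12 at 650701 to 651000 in CC1G_08465, held 453 and 203 counts in IP and 229 and 233 in input (0.629-fold, log2 -0.65 ± 0.16, edgeR adjusted p = 0.0206). Those on chromosome 4 at 3540001 in CC1G_04170 (log2 -0.57 ± 0.14, adjusted p = 0.0232) and chromosome 9 at 2319601 in CC1G_13357 (-0.52 ± 0.11, adjusted p = 0.00980) followed. Of these 3 only the last was also called lower in the multi-mapped table (log2 -0.38, adjusted p = 0.00451). The count of 11 was 1 without input 1_1, 2 without input B_1, 124 without IP 1_1 and 68 without IP B_1. The calls on chromosomes 12 and 4 ended without input 1_1 (adjusted p of 0.0859 and 0.208), and those of all 3 without input B_1 (0.0993, 0.170 and 0.171).

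The IP columns did not weigh the flanks alike. IP B_1 had more CPM than IP 1_1 in 56.9% of flank windows and in 49.8% of far windows, and its pooled log2 over input was 0.44 against 0.39. In window 1 the values were 0.64 and 0.56, and in window 10 0.31 and 0.28. Unique windows near shorter runs had more CPM in IP B_1 in 55.1% of windows, with a pooled log2 of 0.38 against 0.29. The imbalance was thus not particular to the flanks. The tables do not tie these columns to the biological replicates, so p-values measure only the spread between columns, which may be technical.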

How the data were processed

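The authors' 2 deposited tables give whole read counts for each 300 bp window, with log2 fold changes (input over IP) and adjusted p-values from edgeR, per the file headers. Bismark 0.6.4, Bowtie 0.12.7 and edgeR appear in the submitters' processing notes without their roles. The sources used here do not state read extension, filters, any merging of technical replicates or the build of the window coordinates. The deposited log2 fold changes and p-values served only to count the authors' calls, and 8 columns of per-sample values were not used.

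Windows and segments were tested with edgeR 4.0.16 (R 4.3.3), 2 IP against 2 input columns, by the quasi-likelihood test with TMM factors of the window table, at least 10 counts in all, and Benjamini-Hochberg adjustment over the whole table. SEs come from the F statistic. DESeq2 1.42.0 was an alternative. Pooled ratios are ratios of mean CPM per window. A window equally far from 2 runs went to the left one. The fit was tested on simulated counts. The members, lists and alternatives were chosen with earlier results of these data known. By rule the text names the flanks of the 5 longest runs, the 10 highest sides (called, columns of IP and input apart) and 3 lowest sides with at least 3 members, and the 6 highest and 3 lowest called windows with at least 50 counts. Gene models of assembly CC3 were used for names and overlap after input counts correlated best with gene cover at no shift on 13 of 13 chromosomes. Printed coordinates are those of the window tables. Python used numpy 2.4.6, pandas 2.3.3, scipy 1.17.1 and matplotlib 3.10.9.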

Additional observations from a re-analysis of the deposited data

How the results depend on the processing

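DESeq2 size factors, both other count filters and a cut of 20 kb at chromosome ends kept the called counts within 1.5 times and the pooled values within the column spread. Library totals gave 693 higher and 73 lower flank windows and a pooled log2 of 0.27, since they shift all windows. The DESeq2 Wald test called 5 lower windows. An adjusted p under 0.01 left 622 higher and 1 lower windows, and at least 2-fold 119 higher windows, 15 sides and 0 lower windows (by DESeq2 also 0, and by edgeR 0 even with p unadjusted and under 0.05). Leaving out 1 column at a time gave 426 to 1738 higher and 1 to 124 lower windows, 260 to 357 sides, a pooled log2 of 0.38 to 0.44, a difference of window 1 from window 10 of 0.28 to 0.34 and a difference from far windows of 0.33 to 0.39; with 1 column left in a group, the spread comes from the other group and the lone column is assumed to vary alike. In the multi-mapped table the pooled log2 was 0.25, the difference of window 1 from window 10 0.20 and the difference from far windows 0.26. A replicate block of the tag shared by an IP and an input column gave 45 lower windows, 1798 higher and 363 sides; tag differences of IP and input correlated at 0.269 over the flank windows of the primary table (0.199 over all windows) and at 0.0485 over those of the multi-mapped table (0.0614), and no label ties the tags to replicates. With r from -0.25 to 0.25 there were 5 lower windows, and with runs of at least 5 windows 19. Runs of at least 20 windows gave 722 higher and 7 lower windows, 184 sides and a difference of window 1 from window 10 of 0.42. Flanks of 5 windows gave 775 and 3 windows, a pooled log2 of 0.48, a difference of 0.24 from first to last distance and of 0.41 from far windows. Flanks of 20 windows gave 2018 and 23 windows, 0.36 pooled and 0.23 from first to last. The rule from input 1_1 gave 610 higher and 1 lower windows and 0.40 from window 1 to window 10, and that from input B_1 444 and 2. Without the first window the drop was 0.22. The median over windows was 0.32, with a difference of window 1 from window 10 of 0.21. Chosen after seeing the data, complete sides alone gave a drop of 0.42 and 0.31 above far windows, and leaving out the 10 highest sides a drop of 0.24. Where no cause is named, the cause was not tested. No called value changed sign. Of 341 comparisons of named windows and sides, 20 lost and 9 gained a call. With 2 columns per group, counts of lower windows rest on few calls. For most of these settings the share over all windows is not given. The counts called thus do not separate a change in the flanks from one in the whole table.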
